A study of Mus musculus with 4 samples.

Results

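The genes described here were the 38 members of the mouse HoxA, HoxB, HoxC and HoxD clusters, out of 21951 protein-coding genes with an annotated start site in GENCODE vM21. They were taken by name and not by any measured value, 10 from HoxA on chromosome 6, 10 from HoxB on chromosome 11, 9 from HoxC on chromosome 15 and 9 from HoxD on chromosome 2. What was measured was open chromatin by ATAC-seq, in which the Tn5 transposase inserts sequencing adapters into accessible DNA and sites with many insertions are called as peaks. The starting cells came from spleens of wild-type C57BL/6 males, 7 weeks of age, and were naive CD4+ T cells isolated by sorting as CD62Lhigh, CD44low and CD25-. All cells were kept for 48 h under conditions that favour regulatory T cells, with plate-bound anti-CD3 at 5 µg/ml, anti-CD28 at 1 µg/ml, human TGF-b1 at 5 ng/ml and mouse IL-2 at 10 ng/ml. In 2 libraries nothing more was added (without IL-4), and in the other 2 mouse IL-4 at 15 ng/ml was present (with IL-4), so that each comparison asks how chromatin over the Hox genes differed when IL-4 was added. The libraries of a group came from separate pools of cells, and how many mice gave a pool is not given in the sources used here.

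Hox genes encode homeodomain transcription factors that give cells their position along the body axis. They lie in clusters in which gene order follows the order of expression from head to tail, and genes of the same number in different clusters (a paralog group) derive from a common ancestor. In differentiated cells most Hox genes are kept silent by Polycomb complexes, which are opposed by MLL and Trithorax proteins, and Hox proteins bind DNA together with PBX and MEIS cofactors. In the blood system several Hox genes, above all those of the HoxA cluster, are known for their activity in stem and progenitor cells, and their transcripts decline as lymphocytes mature.

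A gene was counted as having a start-site peak when a peak touched the 1 kb on either side of any of its annotated start sites, and the window of a gene was its body plus these stretches. Peak strength was given as a rank, the percent of peaks in the same library that had a higher −log10 q-value, so that a small value marks a strong peak and 100 the weakest. The libraries held 77064 and 56645 peaks without IL-4 (replicates 1 and 2) and 78670 and 67743 with IL-4. The lists give no reads, so depth is unknown and a gene without a peak is one that was not called, which does not show that its chromatin was closed. A weak peak in few cells and a weak peak in all cells cannot be told apart in bulk libraries. All 8 T cell markers (among them Cd3e, Cd4 and Il2ra) had a start-site peak in all 4 libraries. Their median ranks were 7.41 and 13 without and 8.28 and 11.3 with IL-4, but Cd4 was weak, at 66.3 and 88 without and 65.5 and 72.3 with IL-4. Of 19 markers of other cell types, 8 had a start-site peak in all 4 libraries (Cd8b1, Pax5, Cd14, Kit, Flt3, Pdgfra, Col1a1 and Epcam), 4 in some libraries and 7 in none, among these Cd79a, Lyz2 and Ncr1. Of all protein-coding genes 59.9% had one in all 4 libraries and 33.7% in none. The part of other cell types in the Hox peaks was not tested.

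The sequences that carried the leading peaks are shown first. They are the middle 150 bases of the stretch that lay inside the peak of every library that called the region, on the plus strand of GRCm38 (mm10), with every CpG dinucleotide in capitals because CpG content enters a comparison made further on. They stand for the best-ranked regions within the gene windows of HoxA, HoxB, HoxC and HoxD that were called in every library and whose printed bases lie outside untranslated sequence. Of these, the first is -371 bases from the Hoxa4 start site, the second lies in an intron of Hoxb6, the third in an intron of Hoxc6 and the fourth in an intron shared by Hoxd3 and Hoxd4.

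Hoxa4 upstream (chr6:52192047-52192196): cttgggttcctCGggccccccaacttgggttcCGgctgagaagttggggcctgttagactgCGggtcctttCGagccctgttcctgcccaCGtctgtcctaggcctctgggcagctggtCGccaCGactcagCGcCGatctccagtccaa
Hoxb6 intron (chr11:96294622-96294771): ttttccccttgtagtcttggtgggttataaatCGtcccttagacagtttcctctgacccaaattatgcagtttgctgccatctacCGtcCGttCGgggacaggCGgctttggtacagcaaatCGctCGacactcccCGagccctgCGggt
Hoxc6 intron (chr15:102999255-102999404): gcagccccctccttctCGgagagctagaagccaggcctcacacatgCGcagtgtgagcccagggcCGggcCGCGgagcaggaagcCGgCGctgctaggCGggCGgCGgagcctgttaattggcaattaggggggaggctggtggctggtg
Hoxd3 and Hoxd4 intron (chr2:74715943-74716092): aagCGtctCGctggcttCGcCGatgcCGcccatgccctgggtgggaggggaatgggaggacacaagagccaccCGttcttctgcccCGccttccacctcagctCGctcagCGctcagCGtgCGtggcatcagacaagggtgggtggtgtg

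These windows hold 9, 9, 10 and 11 CpG dinucleotides. A further 3 regions were called in both libraries with IL-4 and in neither without, in a coding exon of Hoxb1, in a coding exon of Hoxc5 and in a non-coding exon of Hoxa9. Those of Hoxb1 and Hoxa9 are printed in the same way, the Hoxa9 peaks of the 2 libraries sharing only the 128 bases shown.

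Hoxb1 exon (chr11:96366237-96366386): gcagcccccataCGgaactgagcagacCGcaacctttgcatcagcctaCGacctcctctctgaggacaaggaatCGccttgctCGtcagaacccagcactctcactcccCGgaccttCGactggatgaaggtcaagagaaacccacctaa
Hoxa9 exon (chr6:52229977-52230104): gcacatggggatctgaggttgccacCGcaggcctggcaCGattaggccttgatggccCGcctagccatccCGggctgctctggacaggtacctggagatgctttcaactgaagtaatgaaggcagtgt

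A start-site peak was called at a smaller share of the Hox genes than of protein-coding genes at large. A start-site peak was called in 64.1% and 60.8% of all protein-coding genes without IL-4 and in 64.6% and 62.9% with it, and the lowest of these shares belonged to the shortest list. The number of the 38 Hox genes with such a peak was 20 and 14 without the cytokine and 21 and 19 with it. In all 4 libraries the same was true of 10 genes (26.3%), against 59.9% of all protein-coding genes and 88.9% of the 11906 genes with a CpG-rich start site (a GC content of at least 55% and an observed-to-expected CpG ratio of at least 0.6 in the 500 bases around it). No library gave a start-site peak at 13 Hox genes, a state shared by 33.7% of all protein-coding genes. The remaining 15 genes were called in some libraries only, 8 in 3, 3 in 2 and 4 in 1, whereas among all protein-coding genes 515 of 21951 were called in 3, 392 in 2 and 505 in 1. Of the 23 Hox genes that met the CpG-rich definition, 8 (34.8%) were called in all 4 libraries and 5 in none, and of the 15 that did not meet it, 2 (13.3%) were called in all 4. These shares describe the genes as named, and no test was run between lists of genes.

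**Figure D1:**
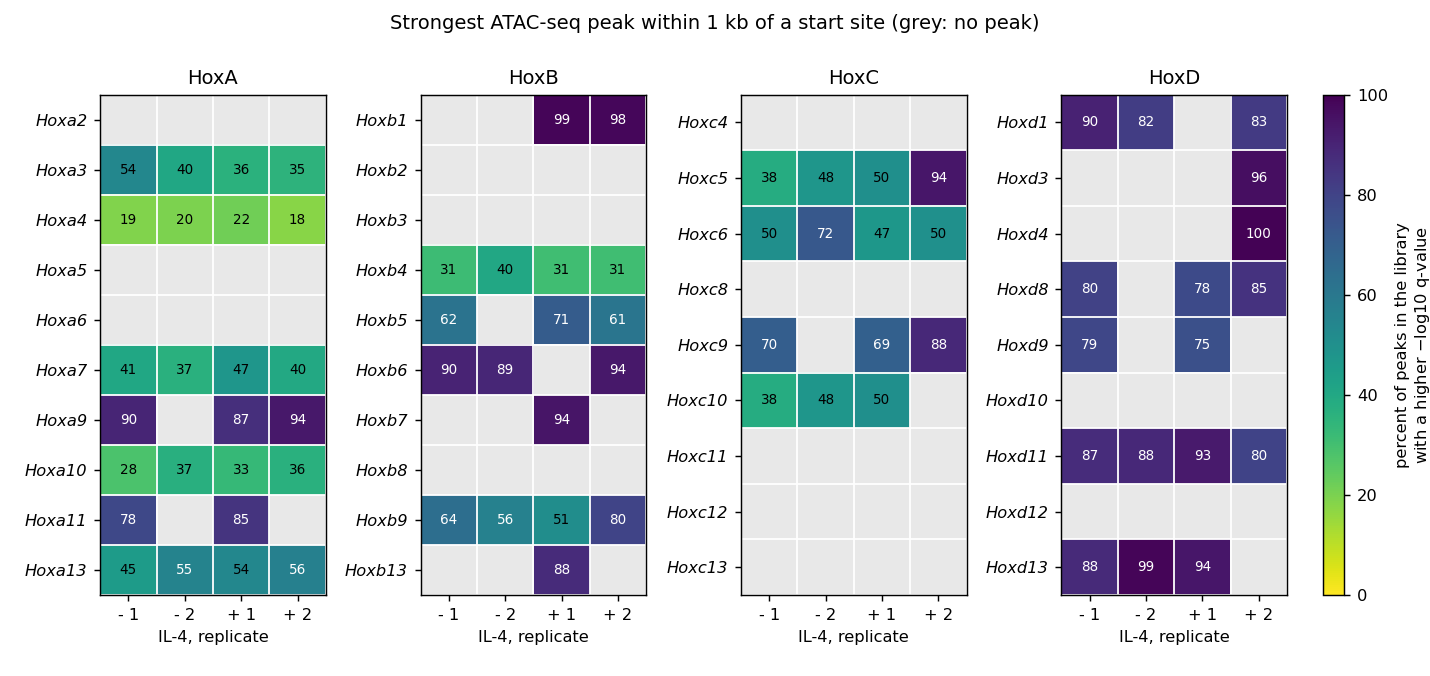
Strongest peak within 1 kb of a start site for each of the 38 Hox genes (rows, in paralog order within each cluster) in the 4 libraries (columns, - without and + with IL-4). Each number and colour is the percent of peaks in that library with a higher −log10 q-value, and grey marks no peak. Hoxa4 holds the strongest start-site peak in every library, and 13 rows are grey throughout.

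The clusters differed in how many genes were called in all 4 libraries. In HoxA 5 of 10 genes had a start-site peak in all 4 libraries, in HoxB 2 of 10, in HoxC 2 of 9 and in HoxD 1 of 9. Genes called in no library gave another order, with 3 in HoxA, 3 in HoxB, 5 in HoxC and 2 in HoxD. No test was run between clusters. By position within the cluster the shares were closer together. Of the paralog groups 1 to 4, 3 of 11 genes were called in all 4 libraries, of groups 5 to 8, 3 of 11, and of groups 9 to 13, 4 of 16. The share of bases of the gene windows inside peaks gave a different order. Inside peaks were 6.64% and 4.63% of HoxA bases without IL-4, against 6.94% and 5.56% with it. In HoxC the shares were 2.85% and 1.12% without and 3.19% and 2.35% with IL-4, the lowest of the clusters in all libraries. HoxB (5.76%, 3.62%, 6.4% and 6.26%) and HoxD (5.85%, 1.79%, 4.94% and 3.72%, in the same order) lay between, except that HoxB was above HoxA in the second library with IL-4. In each cluster the second library without IL-4, the one with the fewest peaks, had the lowest share.

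Peaks at Hox start sites were weak and narrow. The median rank of the strongest peak at the called Hox genes was 62.9 and 51.4 without the cytokine and 69.4 and 80.0 with it. These values rest on different genes in each library and on lists of different lengths, so they are not a comparison of the groups. Over all called protein-coding genes it was 10.8 and 12.3 without and 10.8 and 11 with IL-4. The median width was 470 and 398 bases without and 546 and 325 bases with IL-4, compared with 861, 804, 871 and 849 bases over all protein-coding genes. No Hox peak reached the upper 10% of its library. The upper 50% of the list held 9 of 37 Hox peaks, 7 of 21, 9 of 37 and 8 of 35, in the order given above.

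**Figure D2:**
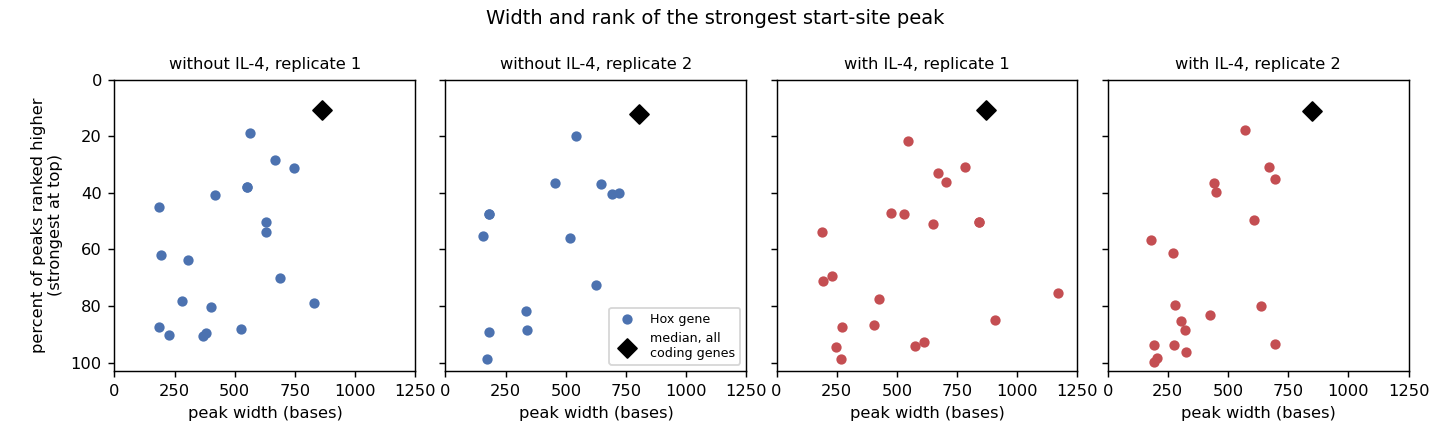
Width in bases (x axis) and rank as the percent of peaks with a higher −log10 q-value (y axis, strongest at the top) of the strongest start-site peak of each called Hox gene, 1 panel per library. Diamonds mark the median over all protein-coding genes, between ranks of 10.8 and 12.3, and no Hox gene has a rank below 17.9.

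In HoxA, the cluster best known in blood progenitors, the leading peak lay upstream of Hoxa4. The merged region (chr6:52191839-52192410, printed above) had −log10 q-values of 122.1 and 64.6 without the cytokine and 93.5 and 106.2 with it. Its rank was 19.0 and 19.9 without and 21.6 and 17.9 with IL-4, so the groups overlapped. The region also lies inside the annotated record of Hoxa3, which spans 44275 bases and covers Hoxa4, Hoxa5 and Hoxa6, so a peak there counts in the windows of both genes.

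Hoxa3, which is needed for the thymus and parathyroid to form, had 2 regions of its own that were called in every library. The one 1293 bases inside the gene (chr6:52211454-52212190) had ranks of 35.8 and 40.4 without and 36.0 and 35.2 with IL-4. The one over its start site was weaker and more scattered, at 53.8 and 66.1 without and 45.8 and 80.2 with IL-4. Hoxa2, a gene of hindbrain and neural crest patterning, and the neighbours Hoxa5 and Hoxa6 had no peak at their start sites or in their bodies in any library.

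Hoxa7 and Hoxa10 had start-site peaks in every library. At Hoxa7 (chr6:52221493-52222022) the ranks were 40.6 and 36.6 without and 47.4 and 39.8 with IL-4. At Hoxa10 (chr6:52240115-52240797), which acts in limb, uterus and blood progenitors, they were 28.4 and 36.9 without and 32.9 and 36.5 with IL-4. In neither of these regions did the groups separate. Each gene had a further, weaker start-site region called in every library, in which both libraries with IL-4 ranked above both without. At Hoxa7 (chr6:52217071-52218014) its ranks were 75.8 and 81.5 without and 59 and 75 with IL-4, and at Hoxa10 (chr6:52233903-52234645) they were 59.9 and 73.7 without and 52.1 and 56.7 with IL-4. Between them lies Hoxa9, a driver of leukaemia when overexpressed in progenitors, which was called in 3 libraries through different regions. The first replicates shared a region (chr6:52225727-52226196) at ranks of 89.5 without and 86.6 with IL-4, and the 93.5 of the second library with IL-4 came from the region at another start site described further on.

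At the posterior end Hoxa13, a gene of distal limb and urogenital development, was called in all 4 libraries by a peak of 156 to 190 bases (chr6:52260850-52261041). Its ranks were 45.1 and 55.3 without and 53.8 and 56.5 with IL-4. Hoxa11, of limb and uterus, was called only in the first replicate of each group, at 78.2 without and 85 with IL-4. These first replicates were the libraries with the longest peak lists of their groups.

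In HoxB the strongest start-site peak was that of Hoxb4, a gene known for expanding haematopoietic stem cells when overexpressed. The region (chr11:96318181-96318994) had ranks of 31.4 and 39.9 without and 30.8 and 30.8 with IL-4. The libraries without IL-4 stood further apart from each other than the first of them from those with IL-4. Hoxb9 was the other gene called in all 4 libraries, at 63.8 and 56.1 without and 51.0 and 79.6 with IL-4, with overlapping groups.

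Several HoxB genes carried peaks away from their start sites. Hoxb6 had a region in an intron (chr11:96294298-96295070, printed above) at ranks of 41.9 and 58.6 without and 44.2 and 45.6 with IL-4. Hoxb8 had no start-site peak in any library but a region over untranslated exon sequence (chr11:96284310-96284911), called at 86.9 and 66.4 without and 51.0 and 53.5 with IL-4. Hoxb2, likewise without a start-site peak, had a region over a coding exon at 69.0 and 85.7 without and 73.6 and 70.6 with IL-4. At Hoxb8 both libraries with IL-4 ranked above both without, and at Hoxb6 and Hoxb2 the groups overlapped.

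The other HoxB genes were called in part of the libraries or not at all. Hoxb5 had peaks at 62.0 without and 71.0 and 61.2 with IL-4, missing from the second library without IL-4. At the Hoxb6 start site the peak was weak, at 90.2 and 89.2 without and 93.6 in the second library with IL-4. Hoxb7 and Hoxb13, the latter a gene of the hindgut and prostate, were called in the first library with IL-4 alone, at 94.4 and 87.5. Hoxb3 had no peak in any library along its 24605 bases.

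HoxC had the smallest share of its bases inside peaks in every library, as given above. Its genes of paralog groups 12 and 13, Hoxc12 and Hoxc13 (the latter needed for hair and nails), and Hoxc8 had none at a start site or in the body, and Hoxc11 and Hoxc4 each had a single body peak, in the second library with IL-4, at ranks of 99.7 and 93.8. Hoxc10 and the long record of Hoxc5 (49987 bases) begin close together, and a region shared by both (chr15:102966373-102967246) was called at 38.1 and 47.5 without IL-4 and at 50.3 in the first library with IL-4. It was not called in the second library with IL-4. Hoxc5 counted as called in all 4 libraries only because in that library another of its start sites had a peak, at 93.8.

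Hoxc6 was called in all 4 libraries by a region in an intron (chr15:102999080-102999730, printed above) at 50.3 and 72.4 without and 47.2 and 49.7 with IL-4. A further region, -3041 bases from Hoxc8 inside the Hoxc5 record (chr15:102987271-102987862), had ranks of 64.9 and 83.8 without and 58.1 and 59.8 with IL-4. In both regions the libraries with IL-4 ranked above those without, but the second library without IL-4 stood further from the first than the groups from each other. Hoxc9 was called in 3 libraries, at 70.1 without and 69.4 and 88.5 with IL-4.

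In HoxD the leading region was not at the start site of a Hox gene. It lay 4200 bases inside the Hoxd4 record, in an intron of Hoxd3 and Hoxd4 and at a start site of the antisense RNA Hoxd3os1 (chr2:74715814-74716444, printed above). Its ranks were 25 and 29.8 without and 25 and 25.1 with IL-4. The region was weakest in the second library without IL-4. The start sites of Hoxd3 and Hoxd4 themselves were called in the second library with IL-4 alone, at 96.2 and 99.6.

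Of the HoxD start sites Hoxd11, a gene of forearm and kidney patterning, was the one called in all 4 libraries, at 87.3 and 88.4 without and 92.6 and 80.0 with IL-4. These calls came from different start sites of the gene, and none of its 3 regions was shared by all 4 libraries. Hoxd13, of the digits and genital bud, was called in 3 libraries at 87.9 and 98.8 without and 94 with IL-4. Hoxd8 (80.3 without, 77.5 and 85.3 with IL-4) and Hoxd1 (90.4 and 81.7 without, 83.0 with IL-4) were also called in 3, and Hoxd9 in the first replicate of each group, at 78.9 and 75.4. Hoxd10 and Hoxd12 had no peak in any library.

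**Figure D3:**
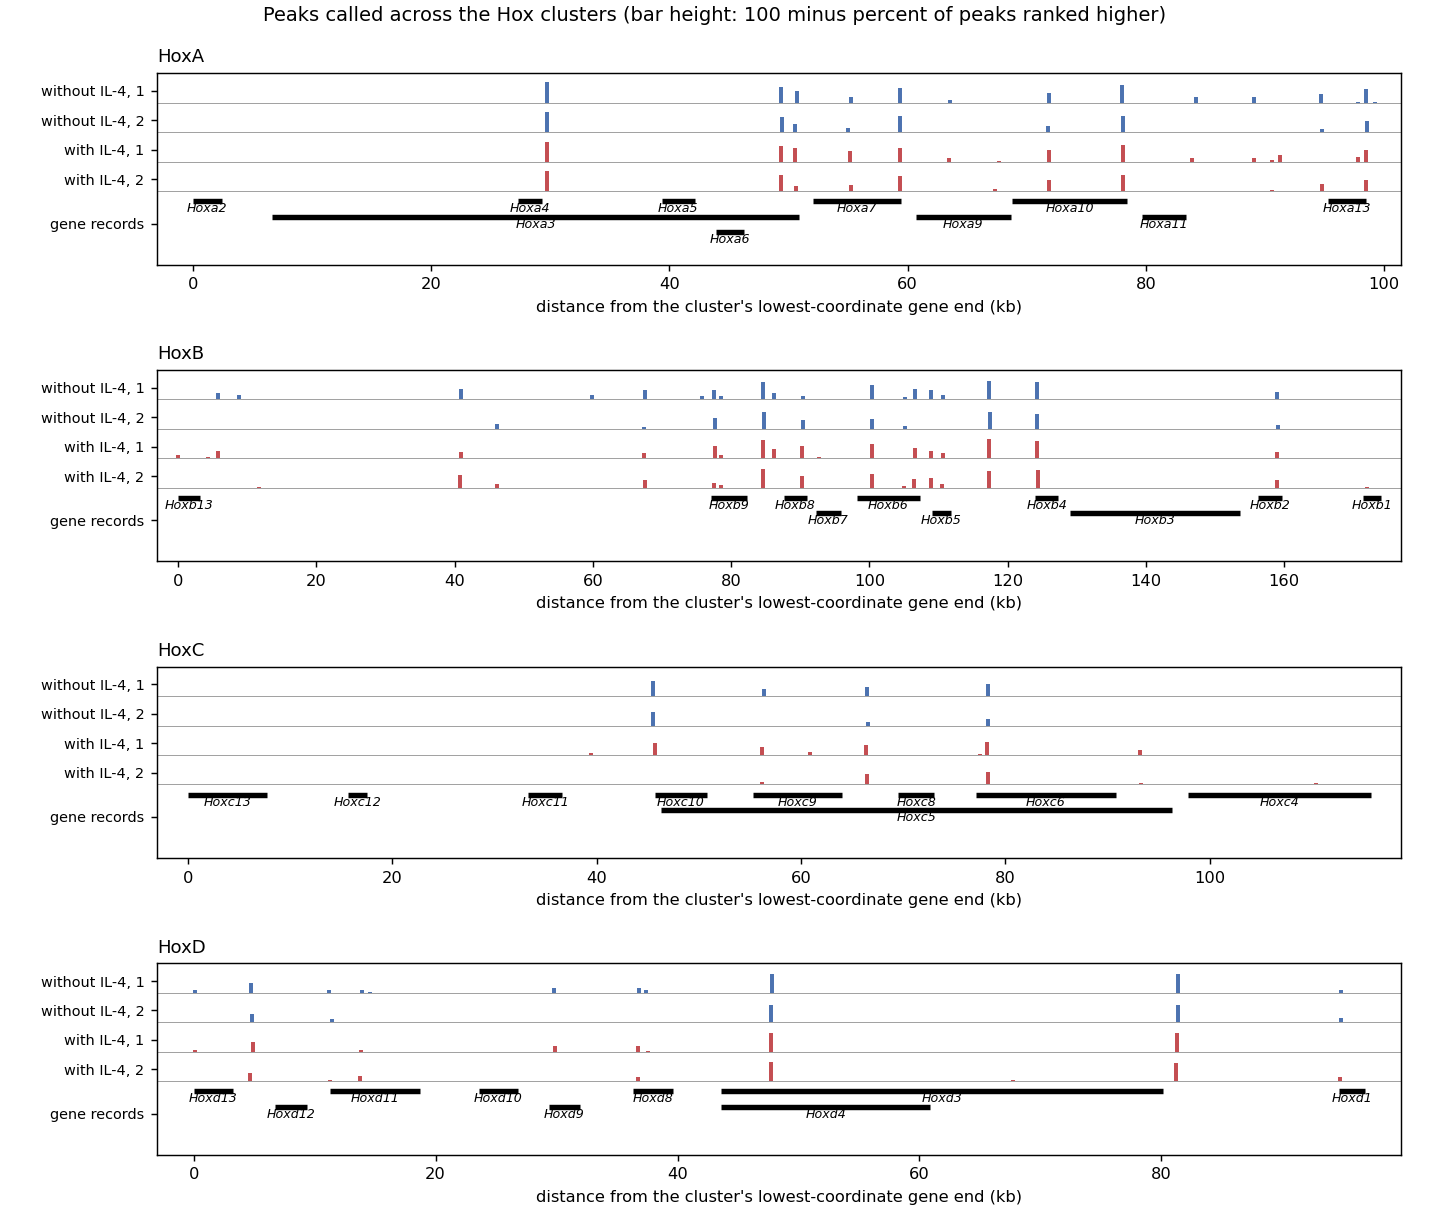
Peaks across the clusters in the 4 libraries. The x axis is the distance in kb from the lowest-coordinate gene end, bars stand at peak centres (widths not to scale) and their height is 100 minus the rank, and black lines are the annotated gene records. The Hoxa4 upstream bar and the bar in the Hoxd3 and Hoxd4 intron are tall in every library, and no peak stands over Hoxa2, Hoxb3, Hoxc12 or Hoxc13.

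Over the Hox gene windows the peaks merged into 47 regions, of 93679 in the whole series. Of the 47, 16 (34%) were called in all 4 libraries, against 51.0% of all merged regions. By cluster these were 8 of 13 regions in HoxA, 5 of 14 in HoxB, 2 of 9 in HoxC and 1 of 11 in HoxD. The middle 200 bases of the Hox regions had a median GC content of 62.0% and an observed-to-expected CpG ratio of 0.804. All regions near a coding start site had 62.0% and 0.699, and all merged regions 49.5% and 0.248.

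The core of the CTCF motif, an insulator protein that divides Hox clusters into domains, was searched as CCANNAG followed by any 2 bases and GGC, on both strands. It occurred in the middle 200 bases of 3 of the 47 Hox regions (6.38%) and in 6.99% of all regions. Of the 35 Hox regions at a start site 8.57% held it, against 3.71% of all regions near a coding start site, a difference that was not tested. Over the whole length of the regions 4 held it, with no share over all regions given for that length. They were those at the start sites of Hoxa7, Hoxa10 and Hoxb6 and the one in the Hoxd3 and Hoxd4 intron. Their 30 bases around the core, printed along the strand of the match with the core in capitals, are given because 3 of them lie in regions called in every library.

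Hoxa7 (chr6:52221800-52221829, minus strand): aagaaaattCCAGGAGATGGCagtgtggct
Hoxa10 (chr6:52240532-52240561, minus strand): tcgcagccgCCACGAGATGGCgcactcccg
Hoxb6 (chr11:96299345-96299374, plus strand): tcctattacCCACCAGCCGGCggcggctac
Hoxd3 and Hoxd4 intron (chr2:74715912-74715941, plus strand): gagctttgtCCAGGAGGAGGCgctgtagga

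The region at Hoxb6 was called in 3 libraries and those at Hoxa7, Hoxa10 and in the Hoxd3 and Hoxd4 intron in all 4. A spaced palindrome of the type bound by STAT6, the factor activated by IL-4, was searched as TTC and GAA separated by any 4 bases. It was in none of the 47 middle windows, which allows a share of up to 6.38% by counting error, and in 5.84% of all regions. Among all regions near a coding start site the share was 3.71%. A match is a match of letters and was not set against binding data.

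With IL-4 compared with without IL-4, none of the 3 measures tested over the whole set of Hox genes separated the groups. On average 17 ± 4.24 genes (SD, n = 2) had a start-site peak when IL-4 was absent, and 20 ± 1.41 (SD, n = 2) when it was present. The difference of 3 gave p = 0.667 in the exact two-sided permutation test, in which 2 against 2 libraries cannot go below 0.333. Without the second library without IL-4 the difference was 0, and with every list cut to the 56645 strongest peaks it was -2.

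The bases of Hox windows inside peaks were 16218 and 8702 without the cytokine and 16595 and 13759 with it. The means were 12460 ± 5314.6 and 15177 ± 2005.4 bases (SD, n = 2 each), a difference of 2717 bases (exact permutation p = 0.667). Without the second library without IL-4 it turned to -1041. With lists of equal length the libraries had 9479 and 8702 bases without and 9341 and 9284 with IL-4, a difference of 222.

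The median rank of the 16 Hox regions shared by all libraries was 47.7 and 57.4 without IL-4, compared with 47.3 and 51.6 with it. The groups overlapped and differed by -3.08 points (exact permutation p = 0.667). Among the 16, both ranks with IL-4 were above both without in 6 regions, near Hoxb4, Hoxc6, Hoxa10, Hoxb8, Hoxc8 and Hoxa7, and below in 0. Over all shared regions the shares were 19.7% and 5.18%. When regions were ranked among shared regions only, the counts became 3 and 2, with 14.3% and 12.7% over all shared regions, and the difference of the medians turned to 2.12.

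**Figure D4:**
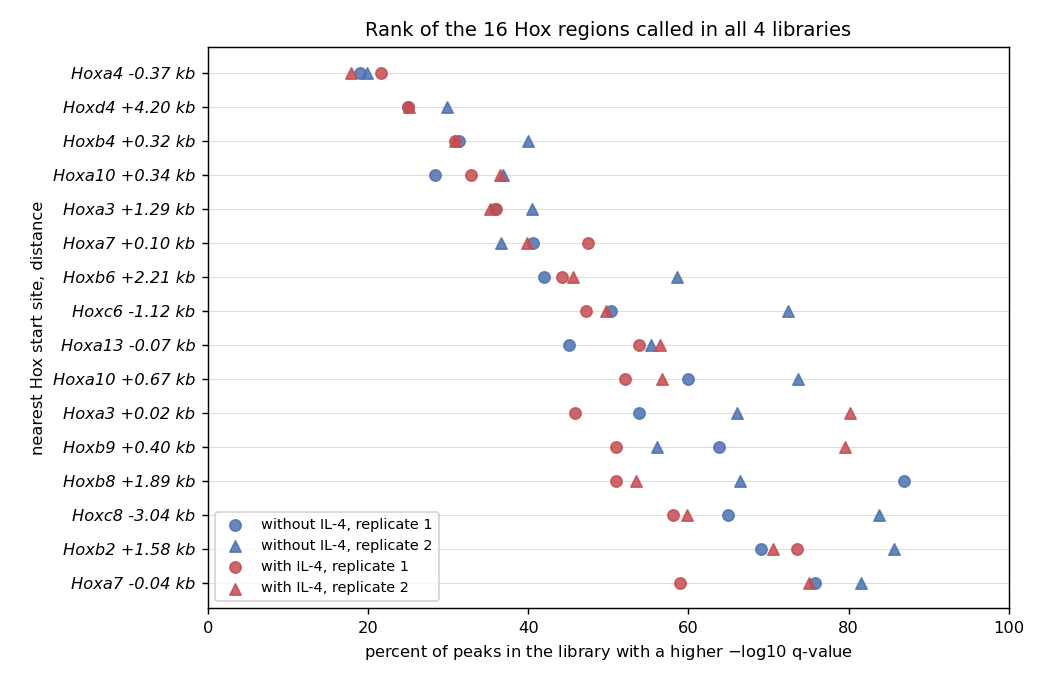
Ranks of the 16 Hox regions called in all 4 libraries, ordered by their median and named by the nearest Hox start site and the distance of the region's centre from it in kb (negative: upstream). Blue marks libraries without IL-4 and red with IL-4, circles replicate 1 and triangles replicate 2. The Hoxa4 region lies between 17.9 and 21.6, and at most regions the colours mix.

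A single Hox gene was called at its start site in both libraries with IL-4 and neither without, Hoxb1, a gene of hindbrain patterning. This pattern was found in 0.346% of all protein-coding genes. The peak (chr11:96366121-96366439) had −log10 q-values of 2.01 and 2.18 and ranks of 98.8 and 98.3, next to the bottom of both lists. No Hox gene showed the opposite pattern, found in 0.0683% of genes.

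Among regions, 3 of 47 (6.38%) were called only with IL-4, against 2.60% of all merged regions, and 0 only without, against 0.699%. Apart from Hoxb1 they were the region in the Hoxc5 exon (chr15:103014113-103014472), at 81.7 and 93.8, and the one in the Hoxa9 exon (chr6:52229411-52230172), at 98.7 and 93.5. All 3 were weak, and with lists of equal length none was called only with IL-4. In the upper 50% of each list 1 region was called only with and 1 only without IL-4. Leaving out 1 library gave 10 regions called only with IL-4 without the first library without IL-4, and 7 without either library with IL-4. The regions called only without IL-4 became 3 without the second library of either group and 2 without the first with IL-4. The count of 10 leaves the shortest list (56645 peaks) as the only library without IL-4. No share over all merged regions was set beside the counts of these alternatives, so they do not set the Hox regions apart from the rest.

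The Hoxc5 and Hoxa9 regions lie at microRNA genes. Mature miR-196b-5p, whose targets include Hox transcripts, is encoded within the Hoxa9 region, under the peak of the first library with IL-4 and beyond the end of the second library's peak, and miR-615-3p 497 bases beyond the Hoxc5 region. For the Mir genes of the clusters 1 mature arm each is printed from RefSeq (GRCm38.p6), with the seed (bases 2 to 8) in capitals. A further microRNA record in HoxD, Gm44463, is not printed and had no peak within 1 kb of its start in any library.

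mmu-miR-196b-5p: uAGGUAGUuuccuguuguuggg
mmu-miR-196a-5p: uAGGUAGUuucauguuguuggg
mmu-miR-10a-5p: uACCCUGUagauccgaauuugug
mmu-miR-10b-5p: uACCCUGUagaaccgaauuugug
mmu-miR-615-3p: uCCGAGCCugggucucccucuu

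The miR-196 forms share a seed, as do miR-10a and miR-10b. Mir196a-1 in HoxB, Mir196a-2 in HoxC, Mir10a in HoxB and Mir10b in HoxD had no peak within 1 kb of their start in any library. Mir196b and Mir615 had one in both libraries with IL-4, through the regions just named. The HoxC RNA Hotair, known for guiding Polycomb complexes, had none. Of 38 genes other than protein-coding annotated inside the clusters, 3 had a start-site peak in all 4 libraries, as had 12.7% of all such genes, Gm53 (60.4 and 93.7 without, 78.0 and 68.4 with IL-4), Hoxd3os1 (through the intron region of Hoxd3 and Hoxd4) and Haglr (26.5 and 30.8 without, 24.8 and 26.5 with IL-4).

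Start-site peaks were common at the genes that flank the clusters. Of the 24 nearest protein-coding genes, 3 on each side of each cluster, 20 had a start-site peak in all 4 libraries, against 59.9% of all protein-coding genes. The median rank of those called was 3.98 and 5.38 without and 4.66 and 4.27 with IL-4, against 10.8 to 12.3 over all protein-coding genes. The T cell adaptor gene Skap1 beside HoxB was weaker, at 50.5 and 67.3 without and 65.0 and 53.7 with IL-4. Next to HoxA, Skap2 had ranks of 5.34 and 5.69 without and 6.91 and 5.48 with IL-4. Calcoco2 and Evx2 had no start-site peak, Ttll6 had one in the first library without IL-4 at 97.2, and Evx1 was called with IL-4 only, at 59.2 and 85.6.

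Genes of the factors that work with or on Hox genes are mostly CpG-rich at their start sites and were called at shares near the 88.9% of all CpG-rich genes or above it. All 11 genes of the Polycomb PRC2 list, all 18 of the PRC1 list and all 8 of the insulator and cohesin list had a start-site peak in all 4 libraries. Of 12 MLL and Trithorax genes 11 did, and Kdm6b, a demethylase of the Polycomb mark, had none in any library. Of 9 PBX, MEIS and PREP cofactor genes 8 did, and Meis2 was missing from the second library without IL-4, with ranks of 68.9 without and 62.3 and 66.0 with IL-4.

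Other homeobox genes of development had start-site shares near those of the Hox genes. Of the 8 ParaHox and Evx genes, the closest relatives of the Hox genes, 2 (25%) were called in all 4 libraries, 3 in none (Evx2, Cdx1 and Cdx4) and Evx1 in both libraries with IL-4 and neither without. Of 51 further developmental homeobox genes, 18 (35.3%) were called in all 4 and 10 in none (Prrx1, Irx1, Irx4, Irx5, Irx6, Alx1, Dlx3, Msx2, Otx2 and Six2), although 42 of the 51 had a CpG-rich start site. The median rank at those called was 72.2 and 70.3 without and 65.1 and 65.2 with IL-4, in the weaker part of the lists like that of the Hox genes. These medians rest on different genes (30 and 21 called without, 33 and 26 with IL-4) and on lists of different lengths, so they are not a comparison of the groups. Alx4 (79.8 and 87.1) and Six6 (95.0 and 85.6) were called in both libraries with IL-4 and neither without, and 0 of the 51 showed the opposite pattern. Over all protein-coding genes these patterns made up 0.346% and 0.0683%.

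**Figure D5:**
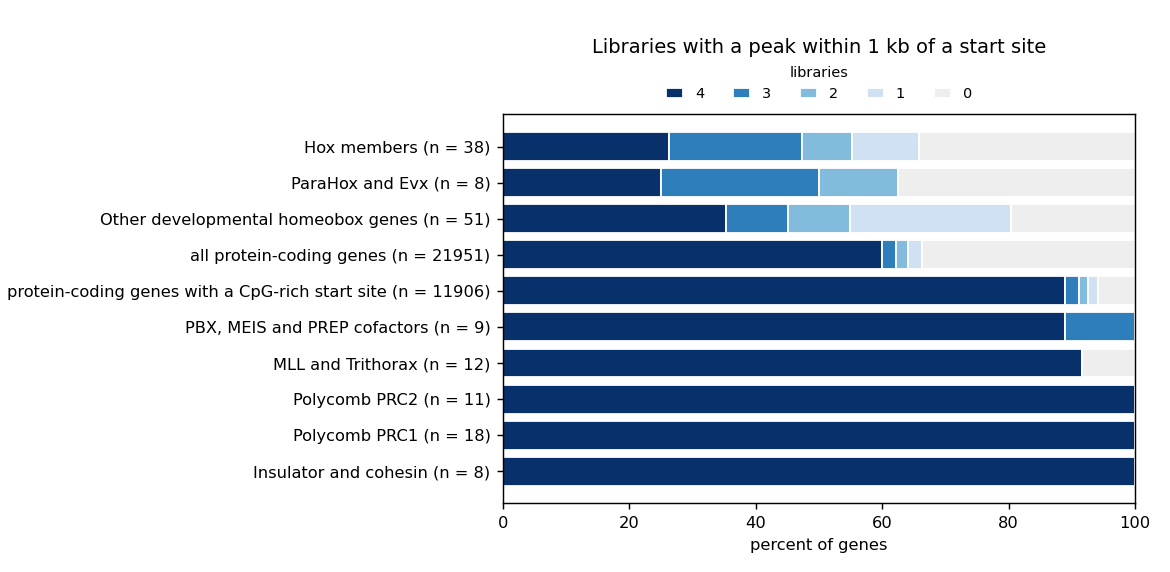
Percent of genes (x axis) with a peak within 1 kb of a start site in 4, 3, 2, 1 or 0 libraries, for the Hox genes, the other gene lists and all protein-coding genes. The Hox genes (26.3% in all 4 libraries), ParaHox and Evx genes (25%) and other developmental homeobox genes (35.3%) lie below all protein-coding genes (59.9%), and the Polycomb lists reach 100%.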

How the data were processed

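ATAC-seq libraries of mouse CD4+ T cells, 2 without and 2 with IL-4, were read as 4 peak lists, 1 per library. The authors deposited for each peak its position (mm10), a −log10 q-value from MACS2 and a height, read here as a pileup signal; the columns carry no names, and the smallest −log10 q-value over the lists (1.31) lies at a q-value threshold of 0.05. The submitters' processing notes name Bowtie2 2.2.5, MACS2 2.1.2 and bedtools 2.16.2; the Tn5 offset and the treatment of duplicate reads are not given in the sources used here.

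Peaks were joined to GENCODE vM21 genes and to GRCm38 sequence with Python 3.11.15, pandas 2.3.3 and pysam 0.24.0. A peak belonged to a gene window when 1 base was shared, and peaks of different libraries that shared 1 base were merged into a region. Library values were compared with the exact two-sided permutation test, computed by enumerating every split of the libraries. The code was tested on simulated lists. Alternatives were stricter and equal-length lists, other windows, ranks and overlaps, leaving out each library, and a replicate block. Named were all 38 genes, the 3 best-ranked regions of each cluster called in every library, every region called with or without IL-4 only, 3 flanking genes per side, non-coding genes called throughout, and list genes with no peak or with a call that differed by condition. The Hox genes and the lists were chosen with earlier results of these data known. Other genes and regions named were chosen after their values were seen. The paper describes the libraries as independent pools, and the labels name no animals or cultures. A p-value therefore only places a difference among the possible labellings of these libraries.

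Equal replicate numbers correlated in their deviations of rank from the group means (r = 0.452 over 47767 shared regions), which with 2 libraries a group is a single value and cannot establish pairing.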

Additional observations from a re-analysis of the deposited data

How the results depend on the processing

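Of 50 alternatives over the 5 results, 35 left the direction or count as it was, 5 reversed a direction, 9 moved a count and 1 gave a weaker difference. The 35 include the replicate block, which can change only the p-value and leaves each of the 5 results as it was by construction. With the upper 50% of each list the difference in Hox genes with a start-site peak was -1 (exact permutation p = 0.333, the smallest that 2 against 2 libraries allow), that of the median rank -1.7, and 1 region was called only with and 1 only without IL-4. With lists of equal length the difference in genes was -2, that of the median rank 2.93 and the regions called only with IL-4 were 0. Ranked among shared regions, the difference of medians was 2.12, and ranked by height -1.15. Leaving out each library in turn moved the difference in genes between 0 and 6, that in bases between -1041 and 6475, that in the median rank between -7.93 and -3.42, the regions called only with IL-4 between 3 and 10 and those called only without between 0 and 3. The values of 0 genes and -1041 bases came without the second library without IL-4, and -7.93 points (exact permutation p = 0.333) and 10 regions called only with IL-4 without the first. The 3 regions called only without IL-4 appeared without the second library of either group. With the replicate block the differences were 3 genes, 2717 bases and -3.08 points, each at an exact permutation p of 0.5, the smallest that 2 pairs allow. The cause of these changes was not tested, and no share over all merged regions was set beside the region counts at these settings. The lists give no reads, so a peak missing from the shortest list (56645 peaks) cannot be told apart from one below its calling threshold.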

Other observations

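Outside the windows of the 38 genes, the spans of the clusters held 19 more regions, and 5 of them (26.3%) had a peak in every library, against 51.0% of all merged regions. The strongest of them ranked with the leading Hox gene regions. One of these lay between Hoxb5 and Hoxb4 (chr11:96311179-96312134), with ranks of 25.9 and 31.5 without and 23.2 and 32.1 with IL-4. Another lay between Hoxb9 and Hoxb8 (chr11:96278658-96279200), with ranks of 28.3 and 31.5 without and 27.2 and 24.5 with IL-4, where both libraries with IL-4 were above both without. A region over an exon of the non-coding gene Haglr between Hoxd3 and Hoxd1 (chr2:74749242-74750086) had ranks of 26.5 and 30.8 without and 24.8 and 26.5 with IL-4. A region -1988 bases from the Hoxd12 start site had 61.6 and 66.3 without and 62.5 and 67.8 with IL-4, with overlapping groups, although Hoxd12 itself had no start-site peak.

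A region in an intron of Gm53 (chr11:96254012-96254402) was called only without IL-4, at ranks of 83.1 and 99.9, and none of the 19 only with IL-4. Over all merged regions 0.699% were called only without and 2.60% only with IL-4. The spaced palindrome of the STAT6 type occurred in the middle 200 bases of 3 of the 19 regions (15.8%). It was in 5.84% of all regions and in 6.39% of those away from coding start sites. Of the 5 regions of the 19 that were called in all 4 libraries, 0 held it. The difference between these shares was not tested.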
